A study of Mus musculus with 8 samples.

Results

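The genes described here are 9 complement components and receptors, *C1qa*, *C1qb*, *C1qc*, *C4b*, *C3*, *Cfb*, *Cfp*, *C3ar1* and *C5ar1*, in RNA-seq of tumor-associated macrophages (TAMs). They were chosen by gene name, and all 9 were found among the 26939 genes of the joined count tables and passed the filter on low counts in every comparison. On day 21, viable cells with CD45, CD11b and F4/80 but without Gr-1 on their surface were sorted from EO771 tumors, a mouse breast cancer line grown in the mammary fat pad of female mice of 8 to 14 weeks. There were 4 groups of 2 libraries. WT control and WT αMARCO came from wild-type mice of C57BL/6J background, and *Unc93b1* 3d/3d control and *Unc93b1* 3d/3d αMARCO from mice carrying the 3d mutation of *Unc93b1* in all cells. UNC93B1 brings the nucleic acid-sensing TLRs to endosomes, and signaling by TLR3, TLR7 and TLR9 is lost in these mice. Replicate 2 of *Unc93b1* 3d/3d control is 3d/3d by its title but 3d/4d in its genotype field, and it was taken as 3d/3d. The αMARCO mice were given 100 µg of a rat IgG1 against the scavenger receptor MARCO on days 3, 6, 9 and 12. The labels call the control mice untreated, the library names say PBS, and the methods name an isotype antibody, so which injection the controls had is not settled. Each control library was pooled from 3 mice, and pooling of the αMARCO libraries is not stated in the sources used here. The p-values measure the spread between these samples.

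Complement is a cascade of plasma and locally made proteins that marks targets for uptake and sends inflammatory signals. C1q, built of chains from *C1qa*, *C1qb* and *C1qc*, starts the classical pathway, C4 carries it on to the C3 convertase, and factor B and properdin build and hold the convertase of the alternative pathway. Cleavage of C3 and C5 frees the small peptides that are sensed by C3AR1 and C5AR1. Macrophages are a main source of C1q in tissues, whereas the liver makes most of the C3 in plasma.

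The library totals ran from 15182618 to 26411936 counts, and a floor of 3 counts corresponded to 0.114 to 0.198 CPM, counts scaled to a library of fixed size, by library total, for counting error only. The 8 macrophage markers summed to between 6776 and 8665 CPM in every library, so the sorted cell type was borne out by its markers, while the 2 hepatocyte markers listed, *Alb* and *Apoa1*, were at or under the floor in all 8 libraries. *Unc93b1* mRNA itself, which a point mutation need not lower, was at 848 and 965 CPM in WT control and at 539 and 660 CPM in *Unc93b1* 3d/3d control, a log2 fold change of 0.58 ± 0.12 (SE, edgeR adjusted p = 0.0125). This mRNA level does not test the 3d mutation. The 2 libraries of *Unc93b1* 3d/3d αMARCO stood apart from each other. Over all genes their median absolute log2 difference was 0.536, against 0.147 to 0.202 within the other 3 groups. Where leaving out one of these libraries changed a call of the 9 genes, the values without it stand beside the result, and a lone library was then assumed to vary like the rest. Such a fit does not measure the spread of that library's group, so its calls and p-values rest on this assumption. In some of these fits a large part of all genes was called, as given below.

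The upstream sequences of *C1qb*, *C1qc* and *C3* are shown first, since *C1qb* and *C1qc* moved together and *C3* moved the other way. Each run is the 250 bases before the transcription start in RefSeq (GRCm38.p6), on the minus strand of chr4:136886201-136886450 for *C1qb*, chr4:136892915-136893164 for *C1qc* and chr17:57228137-57228386 for *C3*. The RefSeq start of *C1qc* lies inside the gene interval given in the next paragraph, which ends at 4:136893065. Part of its window is therefore within that interval. Capitals mark GAGGAA, a core bound by the macrophage factor PU.1, and TTGCNNAA, a C/EBP site, each searched on both strands. A promoter entry was matched for 6 of the 9 genes. Those of *Cfp*, *C3ar1* and *C5ar1* are not shown, and neither of these motifs was matched in them.
C1qb: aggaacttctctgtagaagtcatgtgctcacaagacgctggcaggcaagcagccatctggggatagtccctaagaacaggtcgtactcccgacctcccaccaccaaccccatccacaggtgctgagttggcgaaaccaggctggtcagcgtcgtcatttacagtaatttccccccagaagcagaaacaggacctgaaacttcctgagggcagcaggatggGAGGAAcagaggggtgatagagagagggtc
C1qc: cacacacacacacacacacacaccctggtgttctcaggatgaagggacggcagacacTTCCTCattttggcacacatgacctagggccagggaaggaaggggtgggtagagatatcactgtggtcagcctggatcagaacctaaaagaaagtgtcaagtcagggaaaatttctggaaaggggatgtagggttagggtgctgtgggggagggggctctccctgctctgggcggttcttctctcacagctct
C3: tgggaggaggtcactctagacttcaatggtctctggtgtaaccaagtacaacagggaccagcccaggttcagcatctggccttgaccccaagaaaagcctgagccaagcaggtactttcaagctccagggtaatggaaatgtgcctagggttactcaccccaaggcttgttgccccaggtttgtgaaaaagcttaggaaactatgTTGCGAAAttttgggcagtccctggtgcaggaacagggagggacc
Both C1q runs held 1 match to GAGGAA, at 30 bases from the RefSeq start in *C1qb* and, on the opposite strand, at 193 bases in *C1qc*. Of 32851 upstream regions of this length, 23.3% held it. The C/EBP letters were found in *C3* alone of the 3, 45 bases from the start, and in 9.56% of all regions. The interferon-stimulated response element and the STAT motif TTCNNNGAA, found in 2.98% and 7.02% of the regions, were matched in none of the 3. A match is a run of letters in this window and was not tested for binding.

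The position of each gene in GRCm38 bears on how its reads could be counted. *C1qb* (ENSMUSG00000036905, 4:136880129-136886187), *C1qc* (ENSMUSG00000036896, 4:136889804-136893065) and *C1qa* (ENSMUSG00000036887, 4:136895917-136898803) are neighbors on the minus strand. *C4b* (ENSMUSG00000073418, 17:34728380-34743882) and *Cfb* (ENSMUSG00000090231, 17:34856374-34862518) are on chromosome 17, as is *C3* (ENSMUSG00000024164, 17:57203970-57228136). *Cfp* (ENSMUSG00000001128) is at X:20925454-20931555, *C3ar1* (ENSMUSG00000040552) at 6:122847138-122856161 and *C5ar1* (ENSMUSG00000049130) at 7:16246743-16259540. In the GENCODE annotation, the gene *Gm20547* covers 79.5% of the exonic bases of *Cfb* on the same strand, and *C4b* has a near-identical copy, *C4a*. The counts of *Cfb* and *C4b* are therefore uncertain in level. The exons of the other 7 genes share no base with another gene.

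Per length, C1q stood far above the rest of the cascade. Over the 8 libraries, the mean of the deposited FPKM values was 2199 FPKM (range 1600 to 2922) for *C1qb*, 1881 FPKM (1317 to 2676) for *C1qa* and 877 FPKM (576.5 to 1200) for *C1qc*, which ranked 9, 14 and 31 of 26939 genes. The properdin gene *Cfp* followed at 376 FPKM (rank 115), and the peptide receptor genes *C3ar1* and *C5ar1* at 144 FPKM (rank 353) and 87.1 FPKM (rank 580). The cascade components *C3*, *C4b* and *Cfb* were lower, at 33.7, 18.1 and 3.04 FPKM. This order of the 9 genes held in 8 of 8 libraries. The FPKM ranges over libraries overlapped for the neighbors *C1qb* and *C1qa*, *C5ar1* and *C3*, and *C3* and *C4b*, and for no other neighbors.

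**Figure D1:**
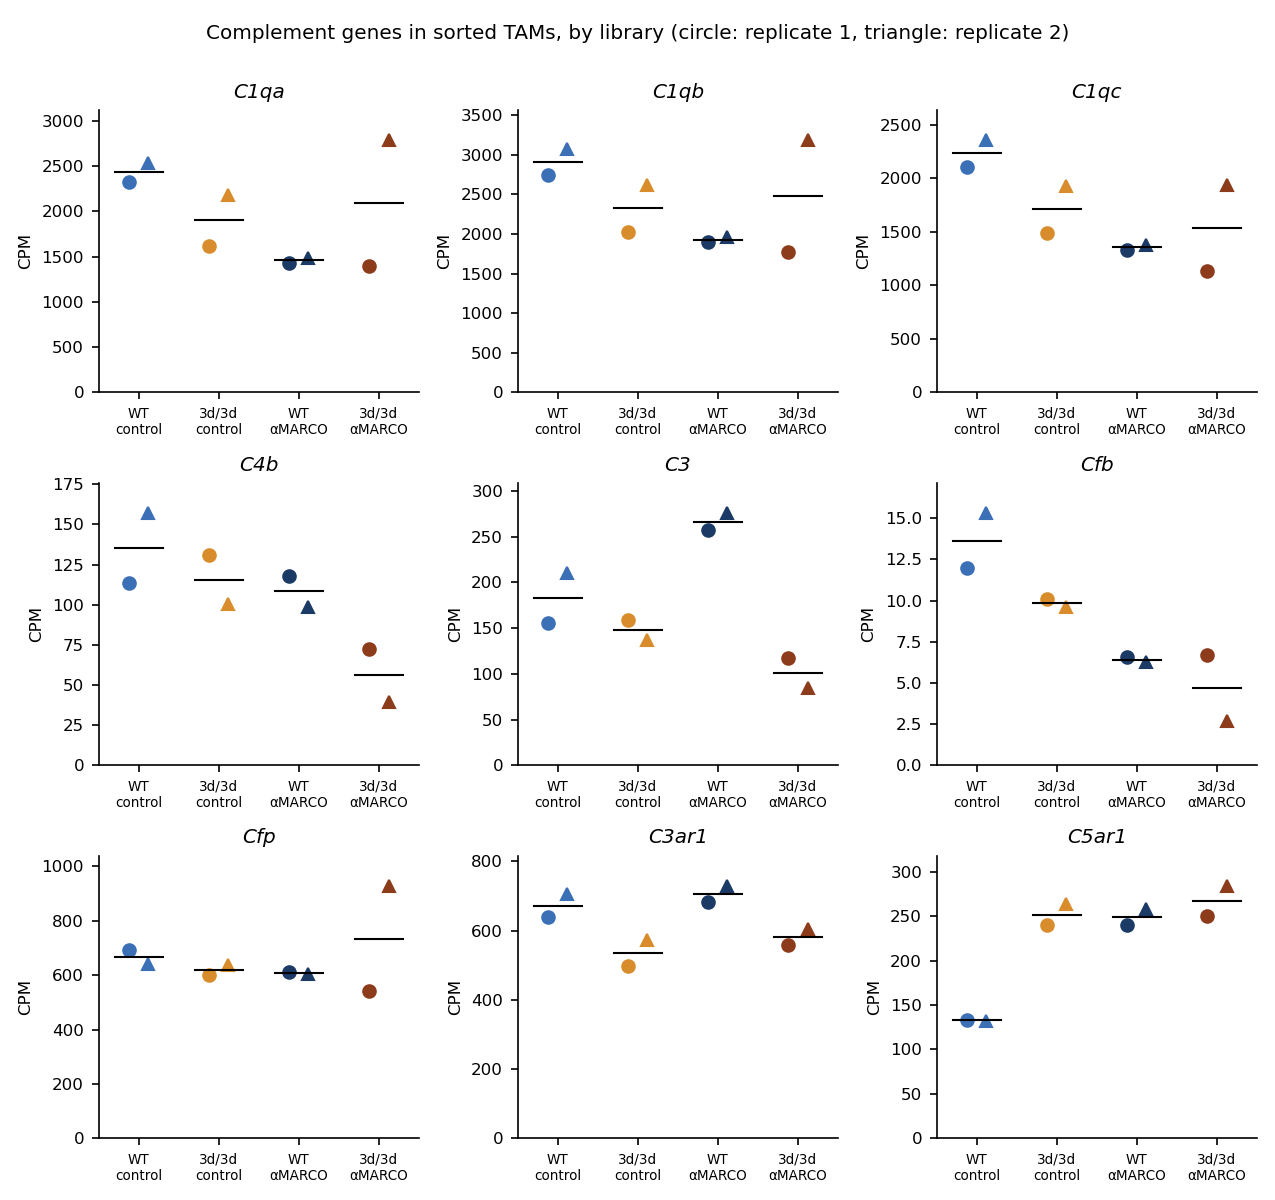
Level of each of the 9 complement genes in CPM (TMM-scaled over 8 libraries), with circles for replicate 1, triangles for replicate 2 and a line at the mean of each group. *C1qa*, *C1qb* and *C1qc* were lower in WT αMARCO than in WT control, *C3* was highest in WT αMARCO at 257 and 276 CPM, and *C5ar1* was near 133 CPM in WT control and at 240 CPM or more in the other 6 libraries.

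The C1q genes fell in WT TAMs under αMARCO. *C1qa* was at 2326 and 2536 CPM in WT control and at 1431 and 1485 CPM in WT αMARCO. Both treated libraries were below both controls, with a log2 fold change of -0.73 ± 0.10 (SE, n = 2 per group), and edgeR's quasi-likelihood test gave a Benjamini-Hochberg adjusted p = 0.000781. *C1qb* was at 2743 and 3077 CPM in WT control and at 1894 and 1956 CPM in WT αMARCO, again with no overlap. Its log2 fold change was -0.59 ± 0.11 (edgeR adjusted p = 0.00269). *C1qc* was at 2106 and 2353 CPM in WT control and at 1326 and 1378 CPM in WT αMARCO, a log2 fold change of -0.71 ± 0.10 (edgeR adjusted p = 0.000918). The 3 chains thus moved together, and levels after αMARCO were 0.603, 0.665 and 0.61 of control for *C1qa*, *C1qb* and *C1qc*.

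In *Unc93b1* 3d/3d TAMs, the C1q genes were not called in either direction. *C1qa* was at 1621 and 2179 CPM in the controls and at 1392 and 2787 CPM under αMARCO, so that the treated libraries lay on both sides of the controls. The log2 fold changes were 0.15 ± 0.42 for *C1qa*, 0.10 ± 0.39 for *C1qb* and -0.14 ± 0.37 for *C1qc*. Without replicate 1 of *Unc93b1* 3d/3d αMARCO the *C1qa* value was 0.57, and without replicate 2 it was -0.45. The difference between the αMARCO effects in WT and *Unc93b1* 3d/3d TAMs was -0.88 ± 0.44 for *C1qa*, with a 95% interval from -1.89 to 0.14 (edgeR adjusted p = 0.351). For *C1qb* and *C1qc* it was -0.69 ± 0.40 and -0.57 ± 0.38 (adjusted p = 0.387 and 0.437). Without replicate 1 the difference was -1.29, -1.05 and -0.90 for the 3 chains, and without replicate 2 it was -0.26, -0.17 and -0.10.

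The genotype itself was compared in control TAMs. The 3 C1q genes had higher values in WT control than in *Unc93b1* 3d/3d control, where *C1qa* was at 1621 and 2179 CPM, *C1qb* at 2030 and 2618 CPM and *C1qc* at 1489 and 1927 CPM. The groups did not overlap, but the log2 fold changes of 0.34 ± 0.14, 0.31 ± 0.14 and 0.37 ± 0.14 did not pass the test (edgeR adjusted p = 0.128, 0.148 and 0.0892). Without *Unc93b1* 3d/3d control replicate 2, the library with the unclear genotype field, the values of *C1qa* and *C1qc* were 0.56 each. Over the fits with a library left out, they ran from 0.14 to 0.56 for *C1qa* and from 0.20 to 0.56 for *C1qc*. Under αMARCO, the comparison of WT with *Unc93b1* 3d/3d gave -0.52 ± 0.39, -0.36 ± 0.35 and -0.18 ± 0.33, none of them called. Without replicate 1 of *Unc93b1* 3d/3d αMARCO, the 3 values were -0.93, -0.72 and -0.51. Without replicate 2 the sign of each turned, at 0.065, 0.12 and 0.26.

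The make-up of the C1q mRNA varied less than its amount. Per length, *C1qa* made 36.2 to 40.5% of the summed C1q FPKM, *C1qb* 43.1 to 45.8% and *C1qc* 15.2 to 18.8%, while the 3 genes together took 0.442 to 0.789% of all counts in a library. The lowest *C1qc* shares, 16.5 and 15.2%, were those of *Unc93b1* 3d/3d αMARCO, and in the other 6 libraries the share was 18.1% or more.

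*C3*, the central component of the cascade, rose in WT TAMs under αMARCO. It was at 155 and 210 CPM in WT control and at 257 and 276 CPM in WT αMARCO, with no overlap. The log2 fold change was 0.55 ± 0.14 (edgeR adjusted p = 0.019), and the call was lost on leaving out any of 3 libraries, with values of 0.35 (under the fold change threshold) without WT control replicate 1, 0.61 without WT αMARCO replicate 1 and 0.50 without WT αMARCO replicate 2. In *Unc93b1* 3d/3d TAMs, *C3* was at 159 and 137 CPM in the controls and at 117 and 84.2 CPM under αMARCO. Here the treated libraries were the lower ones, but the log2 fold change of -0.55 ± 0.25 did not pass the test (edgeR adjusted p = 0.823). Without replicate 1 of *Unc93b1* 3d/3d αMARCO it was -0.80 and called (edgeR adjusted p = 0.000559), and without replicate 2 it was -0.34 (edgeR adjusted p = 0.283).

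Under αMARCO, *C3* had a point estimate in WT TAMs that was 2.65 times the *Unc93b1* 3d/3d level, the widest gap of the 9 genes in that comparison. The log2 fold change was 1.41 ± 0.24, with an unadjusted p = 0.00194 and an edgeR adjusted p = 0.329. DESeq2 called it (1.42, adjusted p = 0.000153), as did edgeR without either library of *Unc93b1* 3d/3d αMARCO (1.67 and 1.18). The αMARCO effect on *C3* differed between the genotypes by 1.10 ± 0.30 (95% interval 0.41 to 1.79, edgeR adjusted p = 0.318), and DESeq2 gave 1.13 with an adjusted p = 0.0472. Without replicate 1 of *Unc93b1* 3d/3d αMARCO this difference was 1.36 and called (edgeR adjusted p = 0.000821), and without replicate 2 it was 0.91 (edgeR adjusted p = 0.0536).

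*C4b*, which codes for a C4 protein, had no called change under the filter on low counts with all libraries in the fit. It was at 113 and 157 CPM in WT control, 131 and 100.4 CPM in *Unc93b1* 3d/3d control, 118 and 98.9 CPM in WT αMARCO and 72.5 and 39.7 CPM in *Unc93b1* 3d/3d αMARCO. The last group lay below the other 6 libraries. In WT TAMs the αMARCO effect was -0.31, and without WT control replicate 1 it was -0.53 and called (edgeR adjusted p = 0.00315), against -0.06 without WT control replicate 2. Against the *Unc93b1* 3d/3d controls its log2 fold change was -1.04 ± 0.33 (unadjusted p = 0.0201, edgeR adjusted p = 0.823; -1.03 and called with no filter, edgeR adjusted p = 0.0362), and against WT αMARCO the WT value was 0.95 ± 0.33 higher (edgeR adjusted p = 0.699). Without replicate 1 or 2 of *Unc93b1* 3d/3d αMARCO, the αMARCO effect was -1.53 (edgeR adjusted p = 9.38e-05, called) or -0.68 (edgeR adjusted p = 0.0776), and the WT excess was 1.45 or 0.58, called in both fits. The difference of effects was 0.72 with all libraries and 1.22 (edgeR adjusted p = 0.0311, called) or 0.38 in these fits.

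*Cfb*, the factor B gene, uncertain in level because of the overlap with *Gm20547*, had low counts and fell under αMARCO in WT TAMs. It had 227 and 276 counts in WT control (11.9 and 15.3 CPM) and 135 and 162 counts in WT αMARCO (6.55 and 6.25 CPM). The log2 fold change was -1.08 ± 0.19 (edgeR adjusted p = 0.00222). In *Unc93b1* 3d/3d TAMs it was at 10.1 and 9.59 CPM in the controls and at 6.72 and 2.72 CPM under αMARCO, a log2 fold change of -1.05 ± 0.47 (edgeR adjusted p = 0.823). Without replicate 1 of *Unc93b1* 3d/3d αMARCO it was -1.84 and called (edgeR adjusted p = 0.000492), and without replicate 2 it was -0.55 (edgeR adjusted p = 0.384). The αMARCO effects in the 2 genotypes differed by -0.05 ± 0.53, with an interval from -1.26 to 1.16, and by 0.76 or -0.51 without replicate 1 or 2 of that group, so the size and sign of this difference are not settled. Between the genotypes under αMARCO the WT value was 0.43 higher, and it was 1.24 higher and called without replicate 1 (edgeR adjusted p = 0.00161) and -0.074 without replicate 2. Because *C3* rose and *Cfb* fell in WT, the *C3* to *Cfb* ratio in FPKM went from 7.13 and 7.53 in WT control to 21.5 and 24.2 in WT αMARCO. The level of this ratio is as uncertain as that of *Cfb*. The ratio in *Unc93b1* 3d/3d TAMs, where neither gene was called, was 8.65 and 7.84 in the controls and 9.56 and 17 under αMARCO, and whether the change in ratio differed between the genotypes was not tested.

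*Cfp*, the properdin gene, was near level in 3 groups. It was at 691 and 641 CPM in WT control, 599 and 636 CPM in *Unc93b1* 3d/3d control, 611 and 604 CPM in WT αMARCO and 540 and 927 CPM in *Unc93b1* 3d/3d αMARCO. No comparison called it with all libraries in the fit, and the αMARCO effect in WT was -0.13 ± 0.09 (95% interval -0.32 to 0.07, edgeR adjusted p = 0.289). The effect in *Unc93b1* 3d/3d TAMs was 0.26, with 0.60 and a call without replicate 1 of *Unc93b1* 3d/3d αMARCO (edgeR adjusted p = 0.00384) and -0.19 without replicate 2 (edgeR adjusted p = 0.618). Without replicate 1, WT was also called lower under αMARCO (-0.61) and in the difference of effects (-0.72), while without replicate 2 these values were 0.17 and 0.088 and not called.

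*C5ar1*, the receptor gene for the C5a peptide, was the one gene of the 9 called between the genotypes in control TAMs. It was at 133 and 132 CPM in WT control and at 240 and 264 CPM in *Unc93b1* 3d/3d control. WT was lower by a log2 fold change of -0.94 ± 0.10 (edgeR adjusted p = 0.000395). With 1 of 9 called, the share of all 15600 genes tested was 13%, and 6.58% were higher and 6.4% lower in WT. αMARCO raised *C5ar1* in WT TAMs to 240 and 258 CPM, a log2 fold change of 0.92 ± 0.08 (edgeR adjusted p = 0.000101). These comparisons share the 2 WT control libraries, the only ones with a low *C5ar1* level.

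In *Unc93b1* 3d/3d TAMs, *C5ar1* was at 250 and 284 CPM under αMARCO, and the log2 fold change was 0.09 ± 0.23 (edgeR adjusted p = 0.926), with 0.19 and -0.013 without replicate 1 and 2 of that group. Under αMARCO the genotypes differed by -0.10 ± 0.19 (95% interval -0.59 to 0.39, edgeR adjusted p = 0.859). The αMARCO effect was larger in WT by 0.82 ± 0.21 (95% interval 0.35 to 1.30). This difference had an unadjusted p = 0.00368 and an edgeR adjusted p = 0.318, DESeq2 called it (0.86, adjusted p = 0.0281), and edgeR called it without either *Unc93b1* 3d/3d αMARCO library (0.74 and 0.95).

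*C3ar1*, the receptor gene for the C3a peptide, was steadier. It was at 638 and 706 CPM in WT control, 497 and 574 CPM in *Unc93b1* 3d/3d control, 684 and 728 CPM in WT αMARCO and 557 and 604 CPM in *Unc93b1* 3d/3d αMARCO. Both WT groups lay above both *Unc93b1* 3d/3d groups. The log2 fold changes of 0.31 ± 0.11 in control TAMs and 0.29 ± 0.20 under αMARCO were not called (edgeR adjusted p = 0.0778 and 0.709). In WT the αMARCO effect was 0.08 ± 0.09 (95% interval -0.13 to 0.29). The effect in *Unc93b1* 3d/3d TAMs was 0.12, with 0.19 and 0.057 without replicate 1 and 2 of *Unc93b1* 3d/3d αMARCO, and the genotype value under αMARCO was 0.23 and 0.34 in those fits, with no call. The ratio of *C3ar1* to *C5ar1* in FPKM was 2.86 and 3.19 in WT control and between 1.24 and 1.70 in the other 6 libraries.

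**Figure D2:**
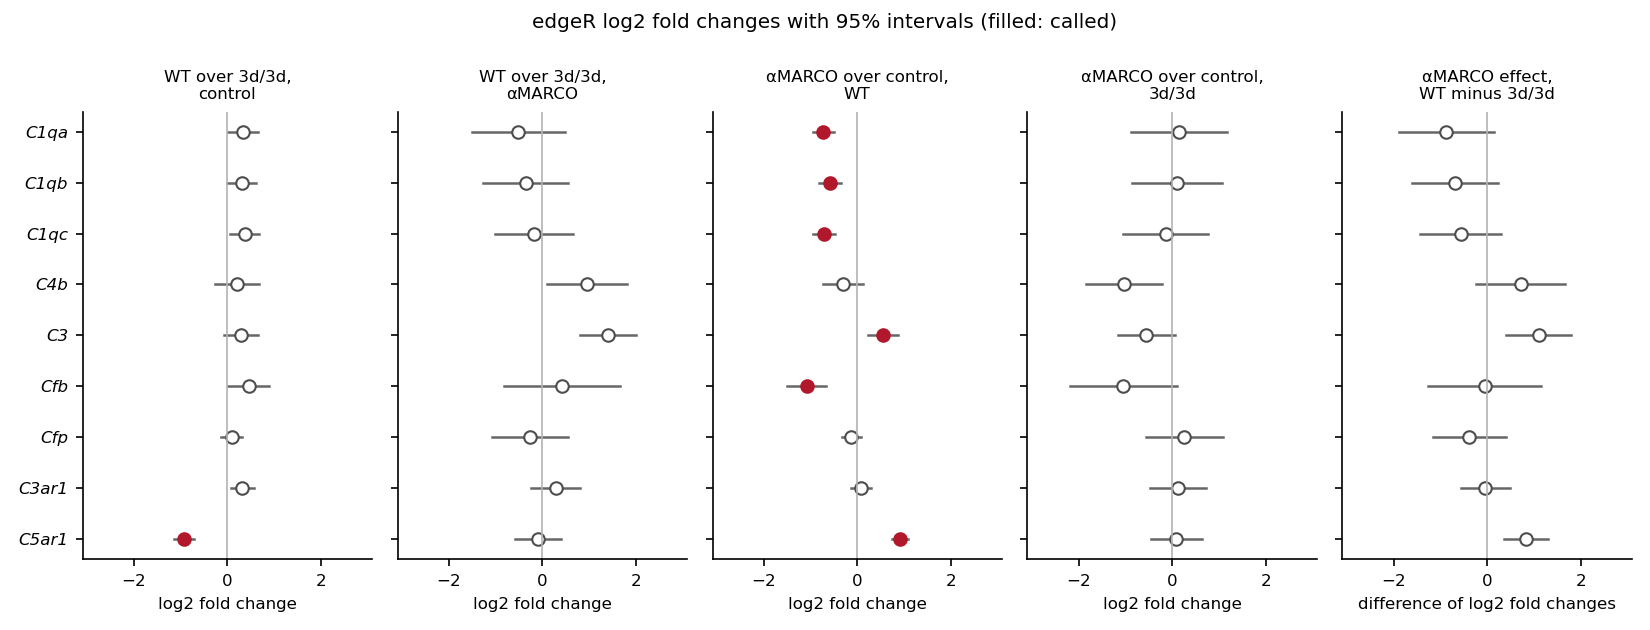
edgeR log2 fold change of each gene (x axis) with its 95% interval in the 4 comparisons, and at right the αMARCO effect in WT minus that in *Unc93b1* 3d/3d TAMs, with filled points for called genes. Called genes appear for αMARCO in WT TAMs (6 of 9) and for the genotype in control TAMs (*C5ar1*), and the intervals are wider wherever *Unc93b1* 3d/3d αMARCO is included.

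By count, αMARCO in WT TAMs called 6 of the 9 genes, with *C1qa*, *C1qb*, *C1qc* and *Cfb* lower and *C3* and *C5ar1* higher. Without WT control replicate 1 the count was again 6, with *C4b* called in place of *C3*. Of all 15630 genes tested, 20.7% were called, 11.8% lower and 8.91% higher. The median log2 fold change was -0.31 over the 9 genes and -0.01 over all genes. In a fit of all 8 libraries in 1 model, which shares the spread of *Unc93b1* 3d/3d αMARCO, 1 of the 9 was called (*C5ar1*). In the comparisons with *Unc93b1* 3d/3d αMARCO, edgeR called 0 of the 9 genes and 0% of all genes. That was 0 of 15428 for αMARCO in *Unc93b1* 3d/3d TAMs and 0 of 15722 for the genotypes under αMARCO. For the difference of effects it was 0 of 16620. At an unadjusted p under 0.05 these comparisons held 1, 2 and 2 of the 9 genes and 744, 1076 and 2549 of all genes. DESeq2 called 60, 214 and 211 of all genes, and 0, 1 and 2 of the 9.

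**Figure D3:**
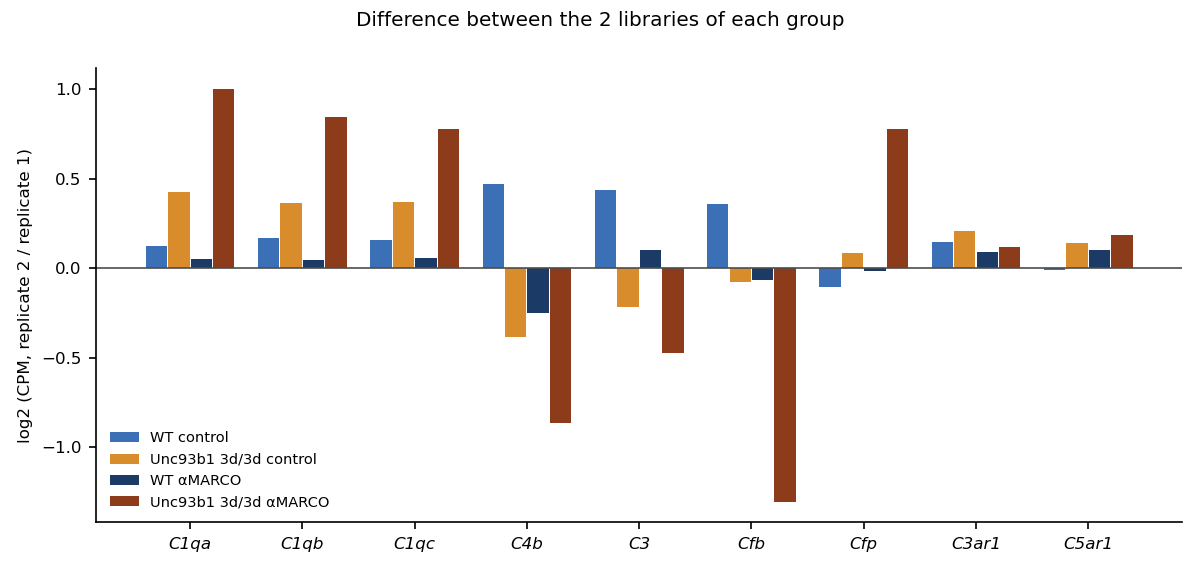
Difference between the 2 libraries of each group for each gene, as log2 of the CPM in replicate 2 over replicate 1. In *Unc93b1* 3d/3d αMARCO the C1q genes and *Cfp* were 0.78 to 1.0 higher in replicate 2, and *C4b*, *C3* and *Cfb* were lower there, with *Cfb* at -1.31.

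The spread in *Unc93b1* 3d/3d αMARCO had 2 sides. Replicate 2 was higher than replicate 1 by 1.0, 0.85, 0.78 and 0.78 on the log2 scale for *C1qa*, *C1qb*, *C1qc* and *Cfp*. For *C4b*, *C3* and *Cfb*, replicate 2 was the lower library, at -0.87, -0.48 and -1.31. The receptor genes *C3ar1* and *C5ar1* differed by 0.12 and 0.18. Without replicate 1, edgeR called 5 of the 9 genes for αMARCO in *Unc93b1* 3d/3d TAMs, with *C1qa* and *Cfp* higher and *C3*, *C4b* and *Cfb* lower, and 7 of the 9 between the genotypes under αMARCO. Without replicate 2 these counts were 0 and 2. All genes called numbered 5387 and 6257 without replicate 1, and 325 and 1222 without replicate 2.

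The rest of the complement system was followed in a list of 42 genes, of which 33 were in the tables and 19 were tested in at least 1 comparison. In control TAMs 2 of 19 were higher and 2 lower in WT, and αMARCO in WT TAMs raised 2 and lowered 2 of 19. The share called among all genes tested was 13% and 20.7% in these comparisons, so that 4 of 19 under αMARCO in WT is near the background. None was called in *Unc93b1* 3d/3d TAMs or between genotypes under αMARCO. For 4 genes (*C1s2*, *C8a*, *Cr2* and *Csmd1*) every library had 3 counts or fewer. The C5 gene *Hc* had at most 12 counts.

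**Figure D4:**
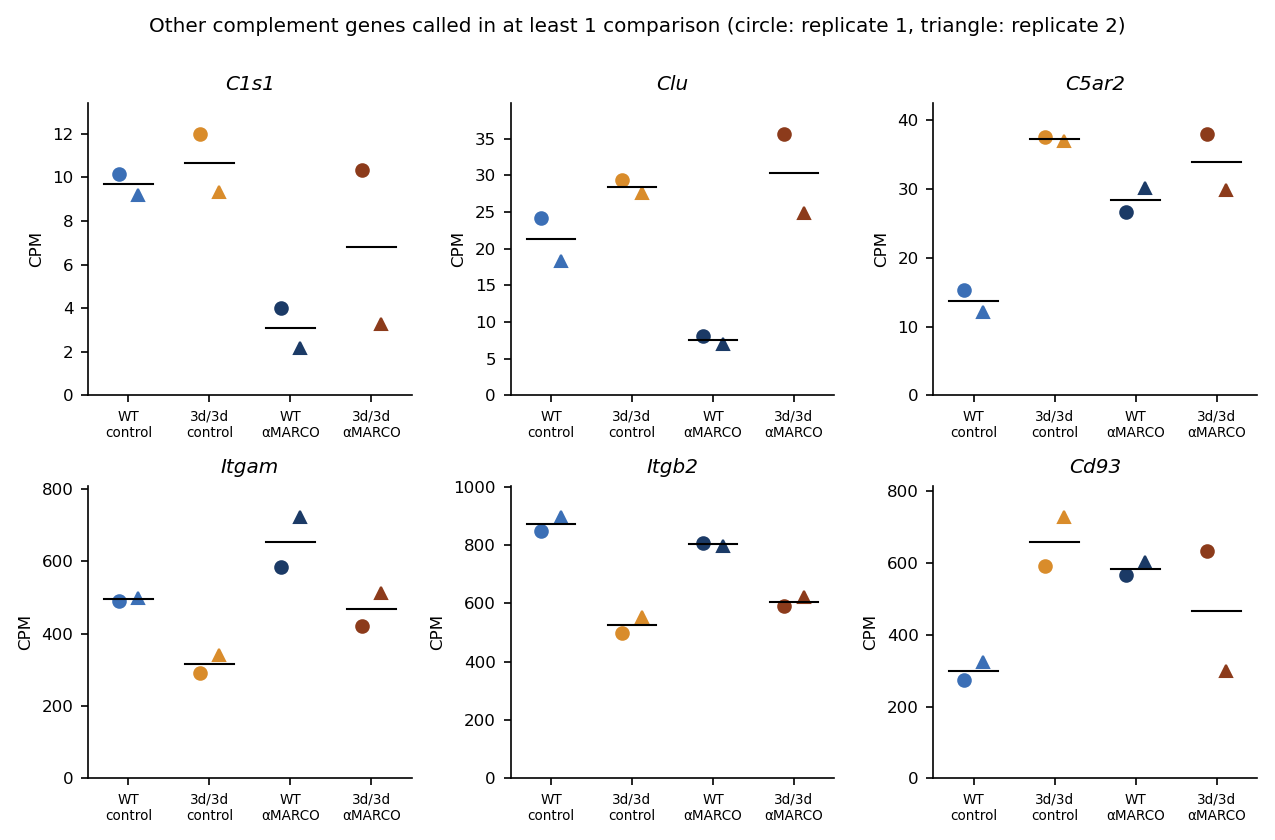
Level in CPM of the 6 other complement genes called in at least 1 comparison, with circles for replicate 1, triangles for replicate 2 and a line at the group mean. *C5ar2* was low in WT control, *Cd93* was low there and in replicate 2 of *Unc93b1* 3d/3d αMARCO, and *Clu* was low in WT αMARCO at 8.11 and 7.02 CPM.

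Among receptors, *C5ar2*, a decoy receptor gene that neighbors *C5ar1*, was at 15.3 and 12.1 CPM in WT control and at 37.5 and 37.0 CPM in *Unc93b1* 3d/3d control. WT was lower by -1.46 ± 0.14 (edgeR adjusted p = 0.000369), and αMARCO in WT raised it by 1.06 ± 0.14 (edgeR adjusted p = 0.000694) to 26.6 and 30.1 CPM. *Cd93*, once named as a receptor for C1q, was at 274 and 325 CPM in WT control and at 592 and 728 CPM in *Unc93b1* 3d/3d control, a log2 fold change of -1.16 ± 0.13 (edgeR adjusted p = 0.000632). αMARCO in WT raised it by 0.97 ± 0.10 (edgeR adjusted p = 0.000207). The *Unc93b1* 3d/3d αMARCO libraries were at 635 and 299.7 CPM, the second of them inside the WT control range. So *C5ar1*, *C5ar2* and *Cd93* were all lower in WT control than in both groups it was compared with. *Itgam* and *Itgb2*, the chains of complement receptor 3, were higher in WT control than in *Unc93b1* 3d/3d control, by 0.63 ± 0.11 and 0.71 ± 0.10 (edgeR adjusted p = 0.00458 and 0.00239). *Itgam* codes for CD11b, on which the cells were sorted.

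Among regulators and proteases, *Clu*, an inhibitor of the membrane attack complex, went from 24.2 and 18.4 CPM in WT control to 8.11 and 7.02 CPM in WT αMARCO, a log2 fold change of -1.49 ± 0.17 (edgeR adjusted p = 0.000383). *C1s1*, a protease of the C1 complex, went from 10.2 and 9.20 CPM to 4.03 and 2.16 CPM (-1.65 ± 0.29, edgeR adjusted p = 0.00243). Fibroblasts, which lack the surface markers used for the sort, also make these proteins. Of 8 fibroblast markers, 7 had lower values in WT αMARCO and 3 were called, the sum of the 8 going from 116 and 90.0 to 42.2 and 27.9 CPM. The part of such RNA in these values was not tested.

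**Figure D5:**
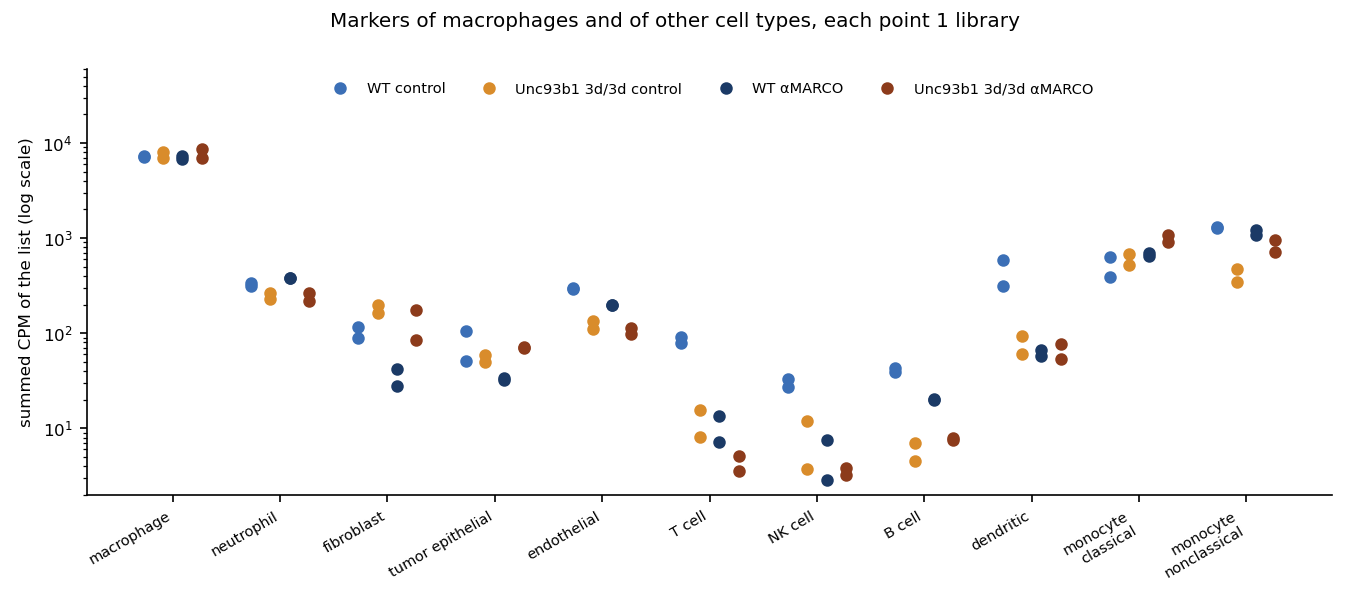
Summed CPM (log scale) of the marker genes of each cell type, with 1 point per library and colors for the groups. The macrophage markers summed to between 6776 and 8665 CPM, while those of T cells, NK cells and dendritic cells were highest in the 2 WT control libraries. The B cell, endothelial and neutrophil sums follow mainly *Cd79b*, *Pecam1* and *Csf3r*.

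Markers of other cells moved with the groups. The 7 T cell markers summed to 78.8 and 92.1 CPM in WT control and to between 3.57 and 15.8 CPM in the other 6 libraries, and all 7 were called higher in WT control against *Unc93b1* 3d/3d control and lower in WT αMARCO. The 6 dendritic cell markers summed to 590 and 317 CPM in WT control and to between 53.0 and 92.4 CPM elsewhere, with 4 of 6 called lower in WT αMARCO. The 6 NK cell markers summed to 32.7 and 27.2 CPM in WT control and to 11.9 CPM or less elsewhere, with 2 of 6 called higher than in *Unc93b1* 3d/3d control and 3 of 6 called lower in WT αMARCO. Of the 5 B cell markers, *Cd79b* alone was called, higher in WT control than in *Unc93b1* 3d/3d control (3.89) and lower in WT αMARCO (-1.24), while *Pax5* had values of the other sign (-1.16 and 1.07, not called). The endothelial markers were split too. *Pecam1* was higher in WT control (2.91) and fell in WT αMARCO (-0.91), and *Cdh5* fell there (-0.84), but the median of the 5 tested was -0.42 between the genotypes in control TAMs. The 5 nonclassical monocyte markers summed to 1305 and 1271 CPM in WT control, 472 and 350 CPM in *Unc93b1* 3d/3d control, 1077 and 1223 CPM in WT αMARCO and 707 and 950 CPM in *Unc93b1* 3d/3d αMARCO. *Cd300e* and *Spn* were called higher in WT control than in *Unc93b1* 3d/3d control (6.05 and 2.82) and fell in WT αMARCO (-1.16 and -1.37), where *Nr4a1* rose (0.61). The classical monocyte marker *Ccr2*, 1 of 4 called, was lower in WT control than in *Unc93b1* 3d/3d control (-0.58, edgeR adjusted p = 0.0455) and rose in WT αMARCO (0.69, edgeR adjusted p = 0.0187), the directions also seen for *C5ar1*. All 8 fibroblast markers had lower values in WT control than in *Unc93b1* 3d/3d control, and 3 were called. In WT αMARCO, 3 of the 4 tested markers had lower values in each of the neutrophil and epithelial lists. *S100a8* was called (-2.32), and *S100a9* (-3.65), *Mmp8* (-0.60) and *Csf3r* (0.40) were not. The 8 neutrophil markers summed to 336 and 316 CPM in WT control and to 377 and 379.6 CPM in WT αMARCO. That sum follows mainly *Csf3r*, at 262 and 279 CPM and then 357 and 354 CPM. *Epcam* and *Krt8* were called lower (-3.98 and -0.73), while *Cdh1* (-2.17) and *Krt7* (1.14) were not called. The 6 epithelial markers summed to 106 and 51.0 CPM in WT control and to 32.1 and 34.0 CPM in WT αMARCO. These are the comparisons in which *C5ar1* and the C1q genes were called, and the part of these cells in the complement values was not tested. The macrophage markers summed to 7127 and 7278 CPM in WT control and to 6776 and 7311 CPM in WT αMARCO, with 1 of 8 called, *Adgre1* (-0.54, edgeR adjusted p = 0.0054), the F4/80 gene on which the cells were sorted. Between the genotypes in control TAMs 4 of 8 were called, with *Itgam* and *Ptprc* higher in WT (0.63 and 0.53) and *Mertk* and *Lyz2* lower (-1.30 and -0.51), while the sum in *Unc93b1* 3d/3d control was 6966 and 7996 CPM. In such bulk RNA, fewer cells of a type and less RNA per cell cannot be told apart.

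Genes with the most similar pattern were sought among 12908 genes with at least 10 counts in every library, by Pearson's r of log2 CPM over the 8 libraries, as a description. The mean of the C1q genes was most like *Ctnnbl1*, *Bola3* and *Mrpl16* (r of 0.988 to 0.984), and 338 genes had an r above 0.9. *C3* was most like *Foxp1*, *Adam17* and *Rapgef2* (0.976 to 0.973), *C4b* like *Cox15*, *Pcx* and *Fmnl2* (0.981 to 0.973), and *Cfb* like *Diaph3*, *Aqr* and *Top2a* (0.994 to 0.988). *Cfp* was most like *Rnf187*, *Taf10* and *Pih1d1* (0.987 to 0.986), *C3ar1* like *Parp2*, *Gbp8* and *Klf11* (0.98 to 0.964), and *C5ar1* like *Pcgf2*, *Snx8* and *Pelp1* (0.978 to 0.976). The libraries share groups, so many genes reach a high r.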

How the data were processed

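Poly-A mRNA of 8 sorted TAM libraries was sequenced, and the authors cleaned reads with fastp, aligned them to GRCm38 (HISAT2 2.0.5) and made gene counts (featureCounts 1.5.0). Strandedness is not given in the sources used here. The deposited raw counts carry no normalization. FPKM, also deposited, is the authors' scaling of each count by gene length and library depth, where the methods name TPM. The authors' own fold changes and p-values, made with DESeq2 1.40.2, were not used. Joining the 3 tables on gene identifiers gave 26939 genes, and 0 of the 95230 counts that stand in several tables differed. A gene absent from a table was given 0 counts.

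Counts were tested with edgeR 4.0.16 in R 4.3.3 (TMM, filterByExpr, robust quasi-likelihood test, Benjamini-Hochberg adjustment over all genes tested), on the 4 libraries of each comparison and, for the difference of effects, on all 8. A call needed an adjusted p no higher than 0.05 together with a log2 fold change of 0.5 or more in size. Values are log2 fold changes ± SE. CPM values use TMM factors over 8 libraries. Alternatives were DESeq2 1.42.0, other scaling and filters, all libraries in 1 model, a replicate block, other thresholds and each library left out. Scaling by library totals alone was chosen after seeing the data. The procedure was tested on simulated data. The genes and lists were chosen with earlier results of these data known. Named were all 9 genes, the other complement genes called in at least 1 comparison, and the 3 genes most alike to each pattern. Some results are not reported here, and the scRNA-seq data were not analysed here.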

Additional observations from a re-analysis of the deposited data

How the results depend on the processing

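Of the 9 genes, 6 were called for αMARCO in WT TAMs, and leaving out each library in turn gave 5 to 6. All 8 libraries in 1 model gave 1 of 9 and 164 of all genes there, and a log2 fold change of at least 1 gave 1 (*Cfb*) and 1366. No fold change threshold gave 5487 of all genes, and leaving out a library 1829 (without WT αMARCO replicate 1) to 3751. For the genotypes in control TAMs, 1 of 9 became 0 with a log2 fold change of at least 1, and the calls changed with a library left out. All genes called went to 364 in 1 model and 951 at the higher threshold. Between the genotypes under αMARCO, 0 of 9 became 1 (*C3*) with DESeq2, with no filter, with the replicate block and in 1 model, when 214, 107, 97 and 108 of all genes were called. Leaving out a library gave 0 to 7 of 9 and 6 to 6257 of all genes. For αMARCO in *Unc93b1* 3d/3d TAMs, no filter called 1 of 9 (*C4b*) and 174 of all genes, DESeq2 60, the replicate block 5 and 1 model 1, and leaving out a library gave 0 to 5 and 1 to 5387. For the difference of effects, DESeq2 called 2 of 9 and 211, no filter 152, and leaving out a library 0 to 7 and 0 to 6416. The causes were not tested, and in the 3 comparisons with *Unc93b1* 3d/3d αMARCO the highest counts came without its replicate 1.

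The sign turned only for values that were not called. With library totals alone, *C1qb* and *C5ar1* were at -0.041 and -0.030 for αMARCO in *Unc93b1* 3d/3d TAMs, and the difference of effects was 0.027 for *Cfb* and 0.067 for *C3ar1*, which were 0.013 and 0.027 with at least 10 counts in every library. With a library left out, the genotype value in control TAMs ran from -0.045 to 0.43 for *C4b*. Under αMARCO it ran from -0.93 to 0.065 for *C1qa*, -0.72 to 0.12 for *C1qb*, -0.51 to 0.26 for *C1qc*, -0.074 to 1.24 for *Cfb* and -0.61 to 0.17 for *Cfp*. The αMARCO effect in *Unc93b1* 3d/3d TAMs ran from -0.45 to 0.57 for *C1qa*, -0.39 to 0.47 for *C1qb*, -0.59 to 0.20 for *C1qc*, -0.19 to 0.60 for *Cfp* and -0.013 to 0.19 for *C5ar1*. The difference of effects ran from -0.51 to 0.76 for *Cfb*, -0.72 to 0.088 for *Cfp* and -0.15 to 0.054 for *C3ar1*. Of 612 values of single genes under alternatives, 539 kept their direction and their side of the threshold. The C1q shares were the same by CPM per kilobase. Same-numbered libraries of different groups share a number in the labels, and whether they also shared a batch was not tested. The correlations of their deviations from the group means ran from -0.08 to 0.14. The replicate block moved no count of the 9 genes other than the 1 given.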
